A study of Mus musculus with 3 samples.

Results

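Input chromatin is fixed and fragmented DNA that goes into sequencing without any antibody step. The series holds 3 libraries, and the 1 described here is the input, chosen by its label. It came from the liver of male wild type C57BL/6 mice aged 3 months, whereas the 2 other libraries came from mice with the same labels and were precipitated with antibodies to the nuclear receptors RXRα or RARα. No group carried an engineered allele or a treatment, and the number of mice behind a library is not given in the sources used here. The extraction notes in the labels mention an antibody step for the input too, and it is the title that names this one as input. With 1 library of each kind, no difference has a replicate check, so no p-value is given and every interval covers counting error only.

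Sonication does not break and recover all chromatin alike. DNA wrapped in nucleosomes and compact heterochromatin is generally harder to shear than the nucleosome-poor DNA at active promoters and enhancers. Arrays of short repeats at centromeres and telomeres, and the many copies of mitochondrial DNA in a cell, are also collapsed into few places of a reference genome. Whole liver is mostly hepatocyte DNA by mass, with endothelial, immune and stellate cells beside it, and the cells that gave a read cannot be told apart.

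The input track gives coverage in 32 bp bins on the mouse genome NCBI37/mm9. A read covered 5 bins, so coverage could be turned back into whole reads on 21 of 21 nuclear chromosomes, 9999292 reads in all. The mean was 0.603 per bin over the genome and 0.620 over the autosomes. A level below is the mean signal divided by the autosomal mean. The autosomal mean was 0.581 once bins of the joined regions described further on were left out, and levels said to leave out these regions are divided by it.

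Repeats carried most of the nuclear signal of the joined regions described further on, and they are shown first because the results below return to them. On chromosome 9, an array of 38592 bp at chr9:2999905-3038496 repeated itself every 234 bases. The period that begins at its highest bin, chr9:3024481-3024714 on the plus strand, is given with capitals for the 51 bases that differ from the next period.
Chromosome 9 array: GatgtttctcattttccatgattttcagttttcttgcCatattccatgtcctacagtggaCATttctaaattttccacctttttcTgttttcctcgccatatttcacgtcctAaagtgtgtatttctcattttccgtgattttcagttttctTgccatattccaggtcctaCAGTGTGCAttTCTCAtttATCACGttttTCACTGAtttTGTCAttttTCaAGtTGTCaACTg
The highest bin of the whole track lay on chromosome 2 in a related sequence, and the second highest region on chromosome 12. Both are given as 120 bases of the plus strand, chr2:98507253-98507372 and chr12:3109941-3110060, with the highest bin of 32 bases in capitals.
Chromosome 2: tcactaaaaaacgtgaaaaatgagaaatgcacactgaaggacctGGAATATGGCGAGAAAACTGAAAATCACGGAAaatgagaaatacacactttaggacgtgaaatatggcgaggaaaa
Chromosome 12: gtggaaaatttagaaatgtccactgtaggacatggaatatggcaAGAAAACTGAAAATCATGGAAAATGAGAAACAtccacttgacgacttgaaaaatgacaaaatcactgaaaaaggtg
A second family was found by its match to an intron of Chl1 on chromosome 6, chr6:103599157-103599276, again with the highest bin in capitals.
Chromosome 6: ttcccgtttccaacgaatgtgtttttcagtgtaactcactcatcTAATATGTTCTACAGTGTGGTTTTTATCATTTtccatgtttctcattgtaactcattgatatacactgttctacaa

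Mitochondrial DNA took up 363856 reads, which was 3.64% of the library (95% Wilson interval 3.63% to 3.65%). Its mean of 3569 per bin was 5756 times the autosomal mean. In the RXRα library the share was 0.261%, so the input share was 13.9 times as large. The mitochondrial genome codes for subunits of the respiratory chain, 2 ribosomal RNAs and the transfer RNAs, and liver cells hold very many copies of it.

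Coverage along the mitochondrial genome was not even. The mean signal was 4583 over mt-Nd1, a subunit of complex I, 4453 over mt-Cytb, the cytochrome b of complex III, and 4054 over the ribosomal RNA mt-Rnr1. It was lower over mt-Co2 and mt-Co3, subunits of cytochrome oxidase, at 2423 and 2458. Over mt-Atp8 and mt-Atp6, subunits of ATP synthase, it was 2053 and 2275. The bins of mt-Nd1 ran from 3758 to 5476 and those of mt-Atp6 from 1837 to 2880, so the 2 genes did not overlap. These 4 genes with low signal, and mt-Nd4l at 2275, held 0% of 32-base words that occur once in the reference, against 99.7% in mt-Nd1. The lowest mean of all 37 genes, 1768, was that of the transfer RNA gene mt-Tn, which held 33.3% such words.

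The low stretch has a nuclear copy. The sequence chr1:24618374-24623027 matched positions 6390 to 11042 of the mitochondrial genome on the opposite strand with 99.9% identity over 4654 aligned bases, with 2 mismatches and 1 gap base. A pair of 61-base stretches around 1 of the mismatches, which is in capitals, shows how little separates them. The first is chr1:24619926-24619986 on the plus strand and the second is chrM:9431-9491 on the minus strand.
Chromosome 1 copy: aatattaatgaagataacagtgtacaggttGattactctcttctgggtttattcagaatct
Mitochondrial genome: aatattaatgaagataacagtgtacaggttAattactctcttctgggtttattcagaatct
Mean signal was 2296 per bin in the mitochondrial stretch and 2580 in the chromosome 1 copy, which sum to 4877. The rest of the mitochondrial genome, where its words are unique, had 4370. The RXRα track showed the same split, with 176 in the stretch, 178 in the copy and 303 in the rest. How reads with 2 possible places were assigned is not given in the sources used here, and its part in the dip was not tested. Another 24 nuclear regions with high input matched mitochondrial sequence.

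The noncoding control region after the last mitochondrial gene was uneven, here over 21 bins from position 15425 to 16096, without the end of the linear reference. Its 9 bins with unique words only ran from 2874 to 7364 with a mean of 5483, and its 8 bins with no unique word from 1286 to 2368 with a mean of 1731. Bins of unique gene sequence ran from 3036 to 5610 with a mean of 4321. The lowest bin of any gene was 1622, in mt-Nd4. The control region starts replication and transcription of this genome.

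**Figure D1:**
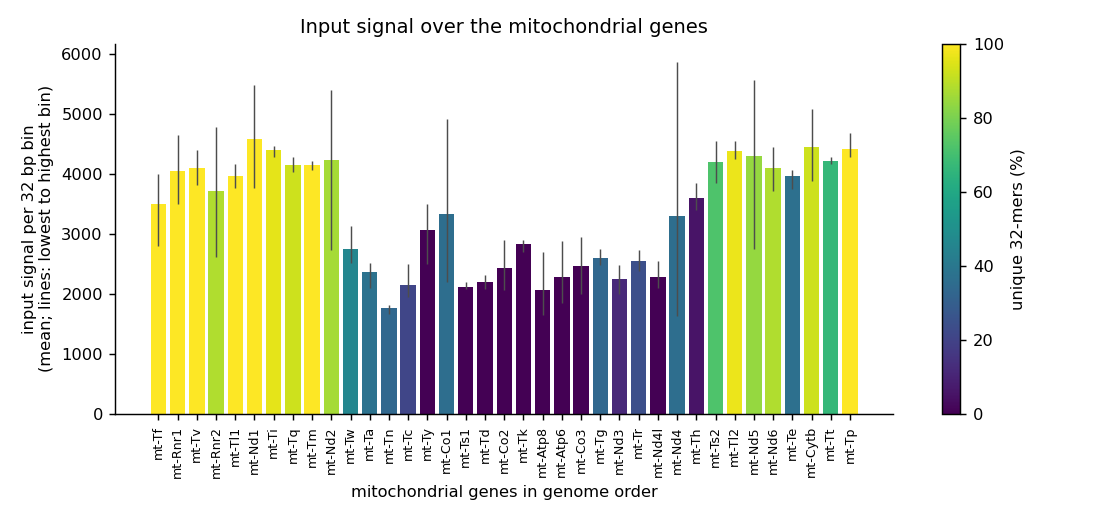
Mean input signal per 32 bp bin over the 37 mitochondrial genes in genome order, with lines from the lowest to the highest bin and colour for the share of 32-base words that occur once. The genes with no unique words lie between mt-Atp8 at 2053 and mt-Ty at 3070, and mt-Nd1 stands at 4583.

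Among nuclear chromosomes, the level spread from 0.882 to 1.36 over the 19 autosomes. Chromosomes 9 and 2 were highest, at 1.36 and 1.29, and they carry the satellite regions shown above. Without the joined regions the autosomes lay between 0.939 on chromosome 7 and 1.04 on chromosome 6, and chromosome 9 was at 0.994. The counting intervals of chromosomes 7 and 6 did not overlap.

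The X chromosome had a level of 0.543 (95% Poisson interval 0.541 to 0.545), and 0.570 without the joined regions. Male cells carry 1 X and 2 of each autosome. In bins with only unique words the X level was 0.515. X held 70.2% unique words, fewer than any autosome, where the lowest share was 78.6% on chromosome 7. The Y chromosome, of which only a short part is in this assembly, was at 1.71 with all bins and at 0.815 without the joined regions. The RXRα track gave 0.433 for X and 1.07 for Y.

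**Figure D2:**
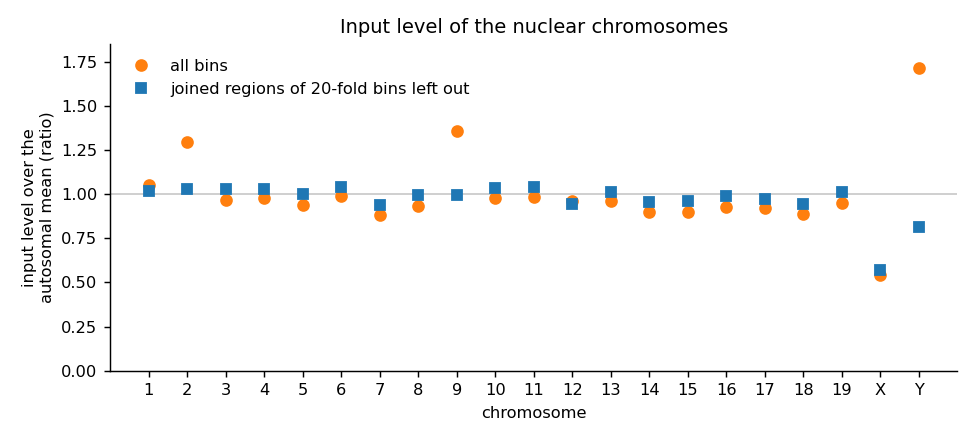
Input level of each nuclear chromosome over the autosomal mean, for all bins (circles) and without the joined regions of 20-fold bins (squares). Chromosomes 2, 9 and Y move down to 1.03, 0.994 and 0.815 when these regions are left out, and X lies at 0.543 and 0.570.

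Windows of 1 Mb showed which areas of the chromosomes stood out beyond the regions. Without the joined regions, the 2391 autosomal windows had a median level of 0.970 and an SD of 0.187. The highest window was on chromosome 8 from 19 to 20 Mb, at 2.40. The next highest, at 2.12 and 1.95, were from 60 to 62 Mb of chromosome 4, which hold the major urinary protein genes that liver secretes as pheromone carriers. Unique words made up only 9.77% and 38.2% of these 2 windows. The lowest windows were on chromosome 12 from 22 to 24 Mb, at 0.525 and 0.477, with 6.48% and 5.68% unique words. On X, where the median of 163 windows was 0.545, the window from 121 to 122 Mb reached 1.66. Across the autosomal windows the level ran with the number of gene starts (Pearson 0.377, Spearman 0.482) and less with GC content (0.314 and 0.354), and these windows share 1 library.

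The question at gene starts is whether unprecipitated chromatin is flat there, since input is the background for the binding maps. It was not flat. Over 22310 protein-coding genes, the mean level within 500 bp of the start was 4.02 (4.01 to 4.03). That mean was set by 97 genes with a bin of a joined region within 5 kb, and without them it was 1.56. Over 21274 autosomal genes without such regions it was 1.70, and the median gene of all stood at 1.25. A window held 3.84 reads at the autosomal mean, so a single gene is measured coarsely.

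The shape around the start was a hump with a notch. Over the 21274 autosomal genes, the profile reached 2.14 at 96 bp before the start, dropped to 1.33 at 256 bp after it, and lay at 1.16 from 4 to 5 kb away. The 8341 CpG-rich starts, which are typical of genes active in many tissues, peaked at 2.75 and dipped to 1.44. Intermediate starts (4456) peaked at 2.68. The 8477 CpG-poor starts, typical of tissue-restricted genes, peaked at 1.25 only.

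GC content was compared next. Autosomal windows of 1024 bp more than 5 kb from a start were used, and joined regions were left out. The input level was highest, at 1.14, in the windows with 25% GC and only 0.700 at 65% GC. Set against windows of the same GC content, the starts were at 1.98 for all genes and 2.69, 2.40 and 1.20 for the CpG-rich, intermediate and CpG-poor classes. Starts outside 25% to 65% GC were set against the nearest end of that range, not against their own GC content. The 65% end rests on 202 windows, and the 251 windows at 64% GC were at 0.929. The median GC content of CpG-rich starts was 62.8%. The same limits hold for GC-matched values of starts and summits below.

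**Figure D3:**
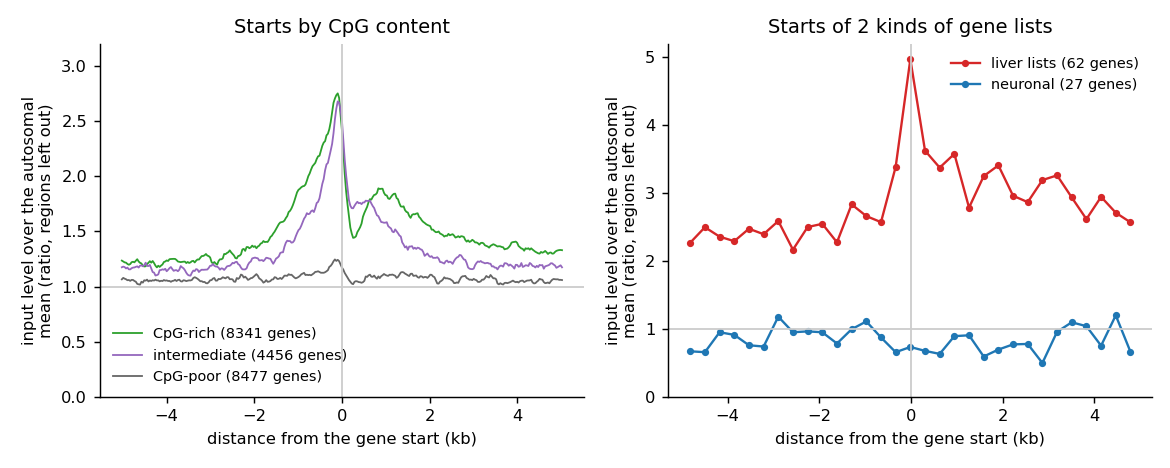
Input level around gene starts from 5 kb before to 5 kb after, over the autosomal mean without the joined regions, for 3 classes of CpG content (left, 32 bp steps) and for 62 liver gene models, Trf counted by overlapping models, against 27 neuronal genes (right, steps of 10 bins). CpG-rich starts peak at 2.75, and liver genes peak at 4.97 and stay at 2.16 or more across the window, whereas neuronal genes stay between 0.497 and 1.20.

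Among the lists compared, those of genes that a hepatocyte uses heavily had the highest pooled input at their starts. Of 32 gene models for plasma proteins, 30 stood at 1.5 times the autosomal mean or more, and of 32 genes of hepatic metabolism 28 did. Trf is in the plasma protein list as overlapping gene models, with start levels of 2.24 and 3.28. Their shared reads enter the counts, pooled values and intervals more than once. Over all protein-coding starts 43.1% stood that high and 18.9% at 0.5 or less. Pooled levels of lists leave out the joined regions. The pooled level was 3.77 (3.42 to 4.14) for plasma proteins and 4.17 (3.80 to 4.57) for hepatic metabolism, against 1.70 (1.69 to 1.71) for all genes. Most of these starts were CpG-poor, 28 of 31 autosomal plasma protein gene models and 22 of 31 in metabolism. The CpG-poor ones alone pooled to 3.95 and 4.79, whereas all CpG-poor starts pooled to 1.12.

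Alb, which codes for serum albumin, had 27 reads in its 992 bp window and a level of 6.97. Among the plasma protein genes Apoh and F9, the coagulation factor IX gene on X, were lowest, with 1 and 3 reads and levels of 0.260 and 1.09. X as a whole was at 0.543. Apoh was read at the 5′ end of its gene model, a CpG-rich start, and other starts of Apoh were not looked at. In hepatic metabolism, Gys2, the liver glycogen synthase, had 29 reads and a level of 7.49. Abcb4, a phospholipid exporter of the bile canaliculus, and Cpt1a, the gatekeeper of mitochondrial fatty acid import, had 3 reads each, at 0.832 and 0.780. A count of 3 reads has a Poisson interval of 0.619 to 8.77, so the low members are not separated from the mean. Over their gene bodies, described further on, Apoh, F9, Abcb4 and Cpt1a stood at 1.52, 1.008, 1.80 and 1.68.

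The upstream bases of 4 of the highest starts show how different the promoters with high input were in CpG content. They are the 120 bases before the start in the direction of transcription, with CpG in capitals. Pck1 codes for the rate-setting enzyme of gluconeogenesis, Rab11b for a small GTPase of vesicle recycling and Mrpl17 for a protein of the mitochondrial ribosome. Their places are chr5:90889795-90889914, chr2:172978429-172978548, chr17:33897476-33897595 and chr7:112959614-112959733, the latter 2 on the minus strand.
Alb: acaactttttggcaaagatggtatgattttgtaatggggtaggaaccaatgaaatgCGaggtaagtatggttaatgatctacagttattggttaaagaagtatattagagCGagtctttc
Pck1: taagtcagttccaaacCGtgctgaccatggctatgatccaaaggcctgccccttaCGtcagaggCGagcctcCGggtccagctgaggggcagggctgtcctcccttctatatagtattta
Rab11b: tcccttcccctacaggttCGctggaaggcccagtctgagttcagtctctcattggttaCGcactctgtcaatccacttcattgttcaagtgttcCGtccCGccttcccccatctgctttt
Mrpl17: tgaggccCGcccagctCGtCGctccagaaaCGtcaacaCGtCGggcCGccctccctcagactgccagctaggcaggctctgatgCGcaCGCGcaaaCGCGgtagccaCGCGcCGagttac
Alb had 2 CpG in these bases and Mrpl17 had 15, yet the starts held 27 and 29 reads. Pck1 and Rab11b each had 4 CpG and held 28 and 37 reads. Among autosomal starts with no joined region within 5 kb, the Rab11b count was the highest. Rps19, which codes for a protein of the small ribosomal subunit, had 38 reads and a joined region inside its window. Rab11b, Pck1 and Mrpl17 are named here after their values were seen, with Fabp1, the liver fatty acid binding protein, which had 30 reads.

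Lists of genes needed in nearly every cell had intermediate pooled levels. Mitochondrial ribosomal proteins pooled to 3.04, with 68 of 77 at 1.5 or more. Their highest starts were Mrpl17 at 7.75 and Mrpl45 at 5.31, and their lowest were Mrps25 at 0.676 and the pseudogene-named Mrps36-ps1 at 0.520. Genes of the histone clusters, linker histones included, pooled to 3.12, led by Hist2h2ab at 7.18 and Hist1h4h at 6.87, whereas Hist1h1t, the testis linker histone gene, was at 0.260 and Hist1h4j had 0 reads. Proteasome subunits pooled to 2.70, with Psmb6 at 5.51 and Psma2 at 4.68 on top. The 2 lowest of them were the tissue-restricted Psmb11 of thymus at 0.520 and Psma8 of testis at 0.260. The ribosomal protein pattern of names took in pseudogenes and S6 kinases, and pooled to 2.24, from Rps19 at 9.52 and Rps6kb1 at 5.31 to Rps19-ps2 and Rps6ka3 with 0 reads.

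Gene families of the liver that sit in arrays were high as well. All 21 major urinary protein genes stood at 1.5 or more and pooled to 3.62, from Mup21 at 6.82 and Mup2 at 5.62 to Mup6 at 1.82 and Mup13 at 1.56. Their windows held a median of 10.1% unique words, so reads could have come from any copy. Cytochrome P450 genes, many of which are expressed outside liver, pooled to 2.31, and 56 of 98 stood at 1.5 or more. Cyp2e1, the ethanol-inducible enzyme, was at 6.40 and Cyp2d26 at 5.88, whereas Cyp4b1 and Cyp4f18 had 0 reads.

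Lists of genes with no known use in hepatocytes had pooled levels below the autosomal mean, although single members stood above it. Of 30 neuronal genes 1 stood at 1.5 or more and 12 at 0.5 or less, and they pooled to 0.709 (0.552 to 0.897). Scn2a1, a neuronal sodium channel, was highest at 1.51, followed by Dcx at 1.35 on X, which as a whole was at 0.543. The glutamate receptor gene Gria1 had 0 reads, for which the Poisson interval of the read count ends at 3.69. Hox genes, the regulators of body axis position, pooled to 0.728. Hoxa7 and Hoxc5 were at 2.34 and 2.29, and Hoxd12 and Hoxd13 had 0 reads.

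Olfactory receptors pooled to 0.786 over 1105 genes. Olfr906 and Olfr1368 were highest at 2.60 and 2.45, and Olfr957 and Olfr982 had 0 reads. Vomeronasal receptors pooled to 0.819, with Vmn1r85 and Vmn2r52 both at 2.34 and Vmn2r94 and Vmn2r97 at 0 reads. Keratin-associated proteins of hair pooled to 0.621, from Krtap5-5 at 1.77 and Krtap16-1 at 1.56 to Krtap5-4 and Krtap6-3 at 0 reads. The highest upper bound of the pooled level among these 3 families was 0.873, for the vomeronasal receptors.

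A list of lipid and retinoid genes, drawn mostly but not completely from those the study discusses, was mostly above the mean. Acsl1 stands in it for a family that the study gives without a number, Cyp26a1 was added, and several Cyp genes of the study are not in it. Of 13, 12 stood at 1.5 or more, and they pooled to 2.43 (2.01 to 2.92). Acsl1, which activates long-chain fatty acids, led with 16 reads and 4.21. Ptdss1, a phosphatidylserine synthase, had 12 reads and 3.23, and Apoa4, an apolipoprotein of chylomicrons and HDL, had 12 and 3.12. Aldh3a2 was at 2.60 and Elovl1, a fatty acid elongase, at 2.34. Cbr1 and Cyp26a1, the retinoic acid hydroxylase, were both at 2.08. Abca1, the cholesterol exporter, and Cyp7b1 of bile acid synthesis were both at 1.98. Abhd5, the activator of triglyceride lipase, was at 1.93, Rxra at 1.87 and Cyp51 of cholesterol synthesis at 1.72. Rara was the exception, with 1 read and 0.260 at the 5′ end of its gene model. Other starts of Rara were not looked at. Over its body beyond the first 1 kb, without joined regions, Rara had 291 reads and a level of 1.74. Rara was itself the median gene of the 9 bodies of 5 kb or more in this list.

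**Figure D4:**
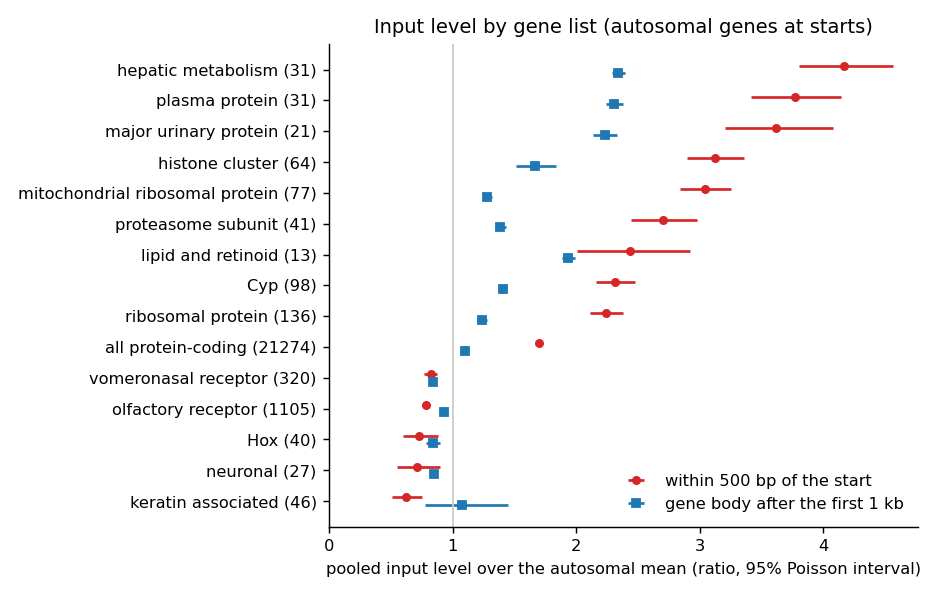
Pooled input level of each gene list over the autosomal mean without the joined regions, at starts (circles, number of genes in brackets) and over gene bodies (squares), with 95% Poisson intervals. Hepatic metabolism at 4.17 and plasma proteins at 3.77 lie highest, and neuronal genes at 0.709 lie below the line at 1.

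The difference between liver and other genes reached past the start into the gene body. Bodies were taken from 1 kb after the start to the end of the gene, without joined regions. Plasma protein bodies pooled to 2.31 (2.24 to 2.37) and hepatic metabolism bodies to 2.34 (2.29 to 2.39), against 1.10 for all genes and 0.845 (0.833 to 0.856) for neuronal ones. Of bodies of 5 kb or more, 24 of 25 plasma protein gene models and 28 of 30 metabolic genes stood at 1.5 or more. Of the neuronal genes, 0 of 25 did. The overlapping models of Trf are among the plasma protein bodies. Over all such bodies, 19.7% stood that high. In the RXRα library the median start level of the same lists was 34.6 for plasma proteins, 27.9 for hepatic metabolism and 0.499 for neuronal genes.

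Bodies were ranked for autosomal genes with 50 body reads or more, a body of 5 kb or more and over 90% unique words at the start. No joined region lay within 5 kb of these starts, but bodies could hold one, whose bins were left out. Among these genes Alb had the highest body level, with 357 reads and a level of 6.66. Pck1 followed with 106 reads and 5.52, and Tat, the tyrosine aminotransferase induced by fasting, with 150 reads and 4.92. Further down were Ugt1a2 at 4.61, the retinol carrier gene Rbp4 at 4.41, the selenium carrier gene Sepp1 at 4.17 and Cyp2e1 at 3.99. The Ugt1a2 gene overlaps other Ugt1a models and holds the joined region chr1:90110305-90110496. These 7 were picked by their values. Cps1, the entry enzyme of the urea cycle, had 1258 reads over its long body and stood at 3.23. Among autosomal bodies of 5 kb or more, the lowest of the plasma protein and metabolic lists were F2 at 1.33 with 49 reads and Glul at 1.41 with 45 reads, and the highest neuronal body was Syt1 at 1.16. On X, the bodies of F9 and of Otc, an enzyme of the urea cycle, were at 1.008 and 1.003 times the autosomal mean. X as a whole stood at 0.570 without joined regions. Start and body did not always go together. Start levels of single genes are over the autosomal mean with all bins, and body levels over the mean without joined regions. Alb was at 6.97 and 6.66, whereas Gys2 went from 7.49 at the start to 1.78 in the body.

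Over all autosomal sequence, exons stood at 1.93 times and introns at 1.19 times the intergenic level. The exon value came down to 1.22 without the joined regions, while introns stayed at 1.18. The next levels leave out the joined regions and are over the autosomal mean without them, not over the intergenic level. Exon bins within 1 kb of a protein-coding start were at 1.45 and those farther away at 1.09. Intergenic bins went down with distance from a gene, from 1.05 within 10 kb to 0.912 between 10 and 100 kb and 0.860 beyond.

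Few genes had exons far above their own introns. Of 556 genes with at least 50 reads in exons and 50 in introns, the median exon to intron ratio was 1.05, and 16 (2.88%) reached 2. Of the 16, 11 had bins in joined regions. Mid1 on X, a ubiquitin ligase gene that spans the boundary of the pseudoautosomal region in this strain, had the largest ratio, 5.76. Lars2, the mitochondrial leucyl-tRNA synthetase gene, followed at 5.32, then Arsb, a lysosomal sulfatase, at 2.93, the predicted gene Gm10717 inside the chromosome 9 array at 2.70, and Ugt1a8 at 2.65. The highest exon bin was 40 in Lars2 and 2057 in Gm10717.

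Bins at 20 times the genome mean or more were collected, since the same factor over input served as the limit for background in the binding maps. The lowest whole signal that qualified was 13. The threshold had no gap around it, with 1095 nuclear bins at 12 and 716 at 13. Bins within 200 bp were joined, which gave 848 regions. In the nuclear genome 0.0101% of bins qualified. The regions held 9.57% of all signal, of which the mitochondrial genome made up 3.64 percentage points. Of the 848, 191 lay on X and Y, and 332 had a highest bin of only 13 to 15.

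The signal was concentrated in few regions. The 10 with the highest bins held 91.6% of the signal of all regions. A short stretch of chromosome 2 held 4 of these 10, and 34.7% of the nuclear region signal. Its highest bin was 49194, in chr2:98506273-98507584 over the predicted gene Gm10800. The other 3 were chr2:98502273-98503232 and chr2:98503681-98504352, both over the predicted gene Gm10801, with bins up to 22273 and 2360, and chr2:98504929-98505472, in no gene, with 6305. Next to them in height were chr12:3109761-3110240 with 23994 and chr9:35112705-35113280 with 14788, both intergenic.

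Of the 10, another 3 were the mitochondrial genome with 7364, its chromosome 1 copy with 3685 over the predicted genes Gm10222 and Gm10925, and the intronic region of the adhesion gene Chl1, chr6:103598945-103599392, with 3042. The last was the chromosome 9 array with 2499, over 13 predicted genes from Gm10106 to Gm17535. The array was also the longest nuclear region. After it came chrY:2853793-2868736, chrY:2786849-2794752 and chrY:2887969-2893088, of 14944, 7904 and 5120 bp in no gene. The remaining one was chr17:39979905-39985760, of 5856 bp over AY036118 with 64.8% GC.

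By sequence, the 27 regions related to the chromosome 9 array, called the chromosome 9-type satellite here, held 3.78% of all signal, and they include the array, the highest bin and the chromosome 12 region. A region was put in this class when the array matched over 30% of its bases. The best match of the highest chromosome 2 region to the array was 92.6% identical, and that of the chromosome 12 region 98.0%. A repeat unit of this length is that of the mouse major satellite, which lies next to the centromeres. The 17 regions that matched the Chl1 intron held 0.765% of the signal, and 10 of them had a best period within 1 base of a multiple of 60. Since 12 regions passed the cut for both families, each went to the family that covered more of it.

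Telomere hexamers made up over 30% of the bases in 125 regions on 21 chromosomes. They were low and short, with a median highest bin of 35, a top of 149 and a median length of 160 bp. Only 12 lay within 200 kb of a gap in the assembly such as a chromosome end, so 113 were interstitial. The nuclear copies of mitochondrial sequence (25 regions) held 1.09% of all signal. Another 27 regions were other tandem repeats, 12 of them on X. The remaining 626 regions held 0.227% of the signal, at a median highest bin of 15.

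The RXRα library had signal in the same places at a different height. Each value here is divided by the genome mean of its own library. Over the chromosome 9-type satellite the median was 135 in input and 50.1 in RXRα, and over the mitochondrial copies 216 and 33.2. The regions were chosen by input, which favours input over RXRα, and RXRα was higher in 226 of the 847 nuclear regions (26.7%). The satellite value in RXRα was below that of input in 27 of 27 regions, and the same held in 25 of 25 mitochondrial copies and 17 of 17 chromosome 6-type repeats. Over the telomere repeats the medians were 48.8 and 45.1, and RXRα was higher in 36 of 125 (28.8%), a share near that of all nuclear regions. AY036118 on chromosome 17 went the other way, with 70.8 in input and 117 in RXRα. The share of nuclear regions that were also at 20 times the mean in RXRα was 51.0%. The same share over all nuclear bins is not given here, so 51.0% has no genome-wide value beside it.

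**Figure D5:**
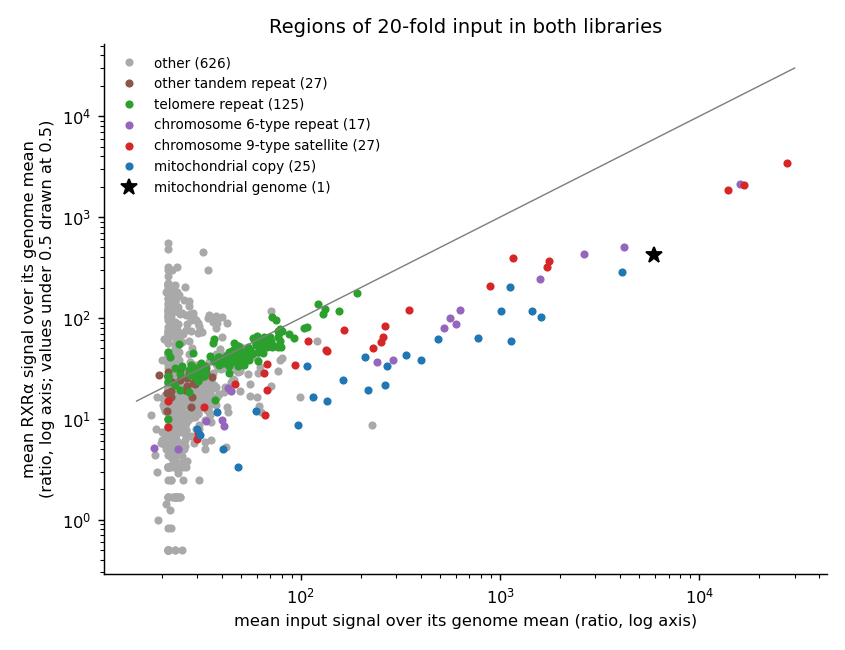
Mean input and mean RXRα signal of the 848 joined regions, each over the genome mean of its own library on log axes, coloured by sequence class, with a line of equal values and RXRα values under 0.5 drawn at 0.5. Satellite and mitochondrial regions lie below the line, telomere repeats lie close to it at medians of 48.8 and 45.1, and unclassed regions near 20 in input spread up to 558 in RXRα.

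Of the 626 unclassed regions, 438 contained repeated words and 188 did not, and regions of both kinds sat in clusters. The densest was chr11:3000321-3099808, with 80 regions, of which 37 were unclassed regions of unique words only. In all, 66 unclassed regions overlapped Sfi1, a centrosome gene, and 15 its neighbour Drg1. On chromosome 8, chr8:19683361-20020512 held 49 regions, and Gm6483 was among the genes they overlapped. The end of X, chrX:166412769-166650296, held 31 regions, and 17 unclassed regions overlapped Mid1. A cluster on chromosome 6, chr6:47604961-47731680, held 20 regions with a median of 0% unique words, and its median was 26.6 in input and 92.8 in RXRα. Y had 2 clusters, of 23 and 42 regions.

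Of the 188 unclassed regions of unique sequence, 104 were in introns, 70 between genes and 14 in exons. Of all 847 nuclear regions, 294 were in introns, 488 between genes and 65 in exons. Autosomal sequence holds 918 Mb of introns, 1393 Mb between genes and 82.6 Mb of exons. They were small, with a median length of 64 bp and a median highest bin of 14. RXRα signal was at 20 times its mean or more in 97 of the 188 (51.6%), against 149 of 438 (34.0%) of those with repeated words and 51.0% of all nuclear regions. A RARα peak overlapped 77 (41.0%) and 32 (7.31%), against 13.8% of all nuclear regions. The RXRα signal reached 100 times its mean in 51 of the 188 and 19 of the 438. The 37 regions of the chromosome 11 cluster differed from the others among the 188. RXRα was at 20 times its mean in 2 of them, and 31 lay in introns and 0 overlapped a RARα peak. Without that cluster, an alternative chosen after seeing the data, 95 of 151 (62.9%) had RXRα at 20 times its mean, 77 (51.0%) overlapped a RARα peak and 73 lay in introns.

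A few of these 51 are given as examples, picked by hand after their values were seen, and they do not stand for the rest. In an intron of Ugt1a1, the enzyme that conjugates bilirubin, chr1:90110305-90110496 had a highest input bin of 25 and RXRα at 296 times its mean. In an intron of Trpm8, close by on the same chromosome, chr1:90184769-90184992 had 25 and 449. Between them lay further joined regions over Heatr7b1, Hjurp and Trpm8, with RXRα from 4.98 to 320 times its mean. The Ugt1a1 and Trpm8 regions are therefore not separate examples. In introns of Nr1i2, which codes for the xenobiotic receptor PXR, chr16:38280097-38280128 and chr16:38288001-38288096 had input bins of 13 and 14 and RXRα at 299 in both. In an intron of Igf1, the growth factor gene, chr10:87360353-87360384 had 13 and 114. Foxa3, a liver transcription factor, had 13 and 119 at chr7:19601505-19601568, and the arginine carrier gene Slc7a2 had 13 and 217 at chr8:41962017-41962048. The region with the most RXRα, 558 times its mean, was chr2:25328385-25328416, which lay 2834 bp from the start of Ptgds.

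At a lower threshold the unique part grew. At 10 times the genome mean, a signal of 7 or more, 23123 autosomal regions lay outside the 848, and 86.1% of them had unique words only. Of all nuclear bins, X and Y included, 76.1% had unique words only, so most of that share is the share of the genome. Of the 19919 regions with unique words only, 9.87% came within 1 kb of a protein-coding start, where 1.70% of autosomal bins lie. A RARα peak of any score overlapped 30.8%, whereas all RARα peaks together cover 2.20% of autosomal bins. Introns held 51.2% and intergenic sequence 41.9% of them. The autosomes as a whole hold 918 Mb of introns and 1393 Mb of intergenic sequence by the same classing.

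The reverse view gave the input at RARα summits. The meaning of the peak score is not given in the sources used here, and it was used only to split the summits. Windows with a joined region were left out, and levels are over the autosomal mean without these regions. At 14667 autosomal summits with a score above 20 that lay over 10 kb from a protein-coding start, the input level within 500 bp was 2.75, and 2.96 times that of windows of the same GC content. It was 4.05 in the bin of the summit itself. At 67266 distal summits with a lower score, the level was 1.81, and 1.94 in the summit bin. At 10989 summits with a score above 20 within 1 kb of a start it was 2.79. The methods set a cut off over input for background. How it entered the RARα list is not given in the sources used here, and its part in these values was not tested.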

How the data were processed

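Liver chromatin of 3 libraries was analysed, with input as the subject. The authors aligned reads with Bowtie after CASAVA 1.4 and deposited the input and RXRα tracks as coverage, a whole-number signal per 32 bp bin on a linear scale, with mm9 in the header, while the methods also name a later assembly. How the tracks were scaled and how duplicates and reads with several places were treated is not given in the sources used here. RARα was deposited as 143280 MACS peaks with a score, of which summits and scores were used, and a false discovery rate in percent, which the authors also gave and which was not used.

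Signal was divided by 5 to give reads of 160 bp, 9999292 in input and 9999939 in RXRα. Intervals are 95% exact Poisson for levels and Wilson for shares, and cover counting error only. Because the 2 totals are nearly equal, the deposited tracks may have been brought to a common depth, in which case the intervals do not give the original counting error. N bases were left out. Genes were those of GENCODE M1 and sequences those of NCBIM37. Bins were classed by their centre as exon, then intron, then intergenic. Words of 32 bases were counted on both strands to find unique sequence. A start was CpG-rich at 0.6 observed over expected CpG and 55% GC in its window or more, and CpG-poor under 0.4. Bins at 20 times the genome mean were joined within 200 bp and classed by BLAST 2.17.0 matches or hexamers over 30% of their bases, or as other tandem repeats at 60% identity to a shifted copy. Code ran in Python 3.11.15 with numpy 2.4.6 and was tested on simulated data. The regions and the 14 gene lists were chosen with earlier results of these data known. Named genes were all of a list of 13 lipid and retinoid genes, the 2 highest and 2 lowest of each other list, the 5 largest exon to intron ratios, the 10 highest and 5 longest regions and the genes that overlap these. Some of the genes and sequences this rule or the classes would give are not reported here.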

Additional observations from a re-analysis of the deposited data

How the results depend on the processing

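With 1 library, no replicate could be left out and no test was run. No paired analysis was possible because each group has 1 library. Of 26 alternatives, 4 stayed within the limits set for the result, 22 moved it and 0 reversed a direction. The mitochondrial share was 3.87% without the nuclear joined regions. The X level was 0.546 with N counted, 0.562 as the median of 1 Mb windows, and, by alternatives chosen after seeing the data, 0.570 without joined regions and 0.515 in unique bins. The level at starts was 1.25 as a median, 3.48 with 1 kb on each side, 1.56 without genes near joined regions, 4.998 over GC-matched windows and, chosen after seeing the data, 1.70 on autosomes without joined regions. Exons over intergenic sequence came to 1.22 without joined regions, 1.88 for protein-coding genes, 1.27 with GC weighting and, chosen after seeing the data, 1.22 in unique bins. Introns came to 1.18, 1.15, 1.20 and 1.17 in the same order. The GC-weighted values also leave out the joined regions. They are therefore to be read beside 1.22 for exons and 1.18 for introns, from which GC weighting moved them up slightly. The 848 regions became 24336 at 10 times and 244 at 50 times the mean, and 1144 when only touching bins were joined, 639 within 1 kb and 848 with the nuclear mean. The share of nuclear regions with RXRα at 20 times its mean was 24.1% at 10 times and 88.5% at 50 times, both chosen after seeing the data. The plasma protein share at starts was 93.8% and, with 1 kb on each side, 96.9%. Leaving out repeats by soft-masking was not run, since the genome used has no such marks. At 3.84 reads per start window at the autosomal mean, single starts near that mean are not separated from it.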

Other observations

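Bins that hold no unique 32-base word, 10.9% of those counted, had a mean input signal of 0.656, and 0.475 without the joined regions. Bins with unique words only had 0.592 and 0.588. Of the bins with no unique word 64.8% were empty, against 63.2% of the unique ones.

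Gene bodies of vomeronasal receptors pooled to 0.841 and of Hox genes to 0.837, close to the 0.845 of neuronal genes. Ribosomal and mitochondrial ribosomal protein bodies pooled to 1.24 and 1.28, whereas their starts pooled to 2.24 and 3.04.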
